A study of Arabidopsis thaliana with 12 samples.

Results

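The plastid genes described here serve the plastid's own gene expression and upkeep rather than photosynthesis. The rule that chose them went by name and used no measured value, but it was set with earlier results of these data known. Every probe set of the Affymetrix ATH1 array that the platform's probe-to-gene table assigns only to chloroplast genes was taken. Those for genes of the photosystems, the cytochrome complex, the ATP synthase and the NDH complex (symbols that begin with psa, psb, pet, atp or ndh), and for *rbcL*, *ycf3* and *ycf4*, were left out. This gave 31 of the 22810 probe sets, for 30 genes, since *rps12* has a pair of them. There were 4 probe sets for RNA polymerase subunits, 11 for small ribosomal subunit proteins, 9 for large ribosomal subunit proteins and 7 for other proteins. Of the 31, 24 stand for 1 locus and 7 for 2 loci, whose signals the probe set does not separate. All 31 passed the filter on low values.

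RNA of whole *Arabidopsis thaliana* seedlings (ecotype Ws) was measured in 4 groups of 3 biological replicates. The groups were wild-type seedlings given 20 mg/L of 5-AC (5-aza-2′-deoxycytidine, an inhibitor of DNA methylation), *ddm1* mutant seedlings, wild-type seedlings given 2.5 mg/L of trichostatin A (TSA, an inhibitor of histone deacetylases), and wild-type Ws seedlings without either agent. All groups grew at 21 °C in continuous light in liquid 0.5× MS medium with 1% sucrose that was renewed at 5 days. All received the solvent DMSO, so the Ws and *ddm1* arrays carry it too. The *ddm1* group is a single T-DNA allele of the chromatin remodeling factor DDM1, isolated in Ws, backcrossed and selfed, so it is 1 mutant line. The labels give harvest at 10 days and the study's methods a later day. Each treatment was run at 1 dose and 1 harvest.

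The plastid genome is transcribed by a bacterial-type RNA polymerase, whose core subunits it encodes itself, and by phage-type polymerases made in the nucleus. Its transcripts are spliced, edited and translated inside the organelle on ribosomes of bacterial type, which mix plastid-encoded with nuclear-encoded proteins. A few further plastid genes serve protein turnover, fatty acid synthesis, intron splicing, cytochrome assembly and the import of proteins from the cytosol.

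The values are log2 signals as deposited, so that a difference of 1 is a 2-fold change. Array medians lay between 4.92 and 5.03, and replicates of a group correlated at 0.961 or more over the probe sets tested. The groups differed in control probes. The probe set for 25S rRNA averaged 13.15 ± 0.14 after 5-AC, 7.73 ± 1.21 in *ddm1*, 11.87 ± 0.51 after TSA and 9.31 ± 0.97 in Ws (log2, SD, n = 3 each). The probe set for 5S rRNA averaged 4.94 ± 0.09 after 5-AC, 6.38 ± 0.77 in *ddm1*, 5.95 ± 0.24 after TSA and 6.51 ± 1.06 in Ws. The difference between the 3′ and 5′ actin probe sets, a sign of RNA integrity, averaged 1.46 ± 0.21 after 5-AC, 1.85 ± 0.12 in *ddm1*, 1.73 ± 0.20 after TSA and 2.09 ± 0.39 in Ws. Of the 6 root markers listed, 2 had a named probe set, and of the 6 shoot markers 0 had one. The log2 of the summed signal of these 2 root markers, PYK10 and EXPA7, lay between 11.94 and 12.14 after 5-AC, between 12.33 and 12.77 in *ddm1*, between 12.05 and 12.61 after TSA and between 12.37 and 12.85 in Ws, and PYK10, a root glucosidase, made up nearly all of it. PYK10 fell by 0.52 after 5-AC (adjusted p = 0.039 from limma). EXPA7, a root hair expansin, lay between 1.89 and 2.50 on the 5-AC arrays, below the 25th percentile of these arrays, so its difference has only a lower bound, and between 3.88 and 5.45 in Ws. The part of these differences in the results was not tested. Plastid RNA is mostly without a poly(A) tail, and how it was primed for labelling is not given in the sources used here.

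After 5-AC treatment 28 of the 31 probe sets fell relative to Ws and 0 rose, at an adjusted p under 0.05 from limma. Over all probe sets tested 26.2% were called lower and 30.8% higher. The median log2 change over the plastid expression and housekeeping probe sets was -1.55, against 0.05 over all probe sets tested, and the changes ran between -2.95 and -0.18. In 25 of them the signal was over 2-fold lower and in 11 over 4-fold lower. On all 28 every 5-AC array lay below every Ws array, which was so for 29.2% of all probe sets. The *ddm1* mutant gave 0 calls in either direction, and TSA gave 12 higher and 0 lower. In whole seedlings, fewer plastids or fewer plastid-rich cells and less RNA in each plastid cannot be told apart.

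**Figure D1:**
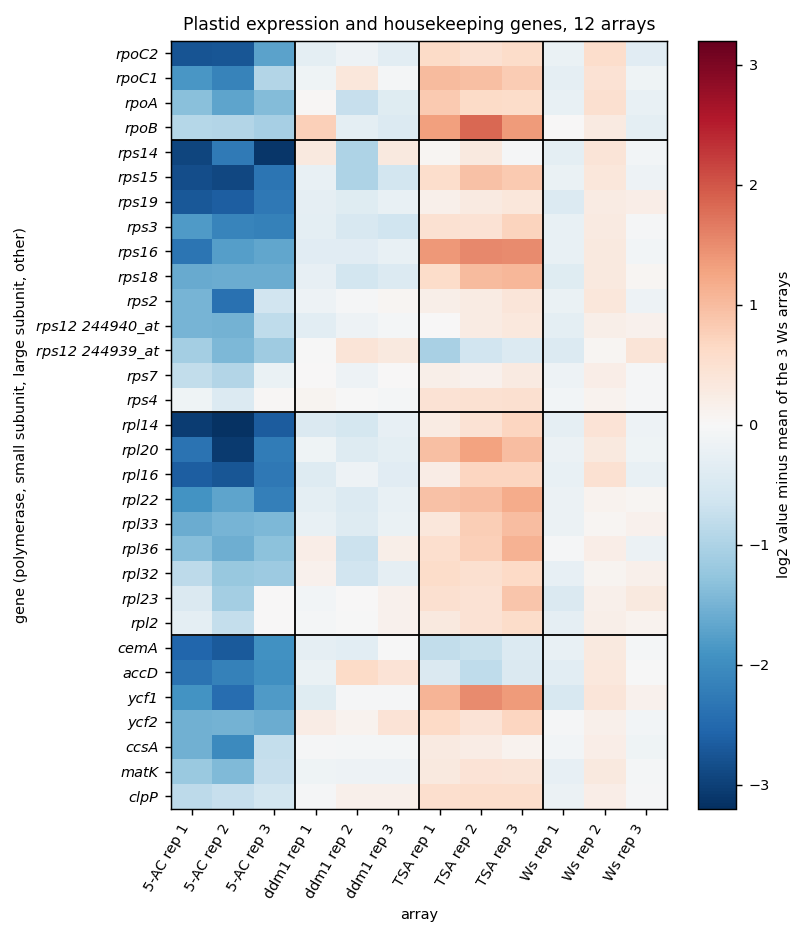
Log2 value of each plastid expression and housekeeping probe set (rows, ordered by role) on each of the 12 arrays (columns), as the difference from the mean of the 3 Ws arrays. The 3 columns of 5-AC are blue in most rows, those of ddm1 are pale, and those of TSA are red in most rows, with *rps12* (244939_at), *accD* and *cemA* as pale blue exceptions.

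The polymerase genes were all lower after 5-AC. *rpoC2*, which encodes the beta″ subunit, had log2 values of 6.80, 6.82 and 7.85 on the 5-AC arrays, against 9.35, 10.12 and 9.19 on the Ws arrays. *rpoC1*, for the beta′ subunit, had 7.83, 7.56 and 8.75 after 5-AC, against 9.40, 10.16 and 9.55 in Ws. *rpoA*, for the alpha subunit, had 9.52, 9.18 and 9.47 after 5-AC, against 10.62, 11.38 and 10.63 in Ws. In all of these the groups stood clear of each other, although the third 5-AC array was the highest of its group for *rpoC2* and *rpoC1*. Their log2 changes were -2.40 ± 0.29 for *rpoC2*, -1.65 ± 0.29 for *rpoC1* and -1.48 ± 0.24 for *rpoA* (standard error, adjusted p of 6.1e-04 or less from limma). *rpoB*, for the beta subunit, had low signals throughout, with 3.76, 3.75 and 3.61 after 5-AC and 4.69, 4.97 and 4.37 in Ws. Its change of -0.97 ± 0.29 was the smallest of the polymerase genes (adjusted p = 0.015 from limma), and without the second Ws array it was -0.82 and no longer called (adjusted p = 0.059).

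Of the small subunit probe sets 10 of 11 fell after 5-AC, with a median change of -1.59. *rps14* had 2.90, 3.58 and 2.72 on the 5-AC arrays, against 5.52, 6.24 and 5.76 on the Ws arrays. Its fall of 2.78 (standard error 0.35) was 6.85-fold, and on replicates 1 and 3 of the 5-AC arrays the signal was close to the background of the array, whose 25th percentile lay between 2.62 and 2.70 over the arrays. *rps15* had 6.85, 6.76 and 7.35 after 5-AC, against 9.46, 10.05 and 9.53 in Ws, and fell 6.47-fold. *rps19* had 9.41, 9.47 and 9.82 after 5-AC, against 11.68, 12.37 and 12.32 in Ws, a fall of 5.88-fold. These 3 were the deepest falls among the small subunit genes (adjusted p of 5.4e-05 or less from limma).

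*rps4*, for a protein that binds 16S rRNA early in the assembly of the small subunit, was the exception. It had 13.12, 12.80 and 13.28 after 5-AC, against 13.15, 13.37 and 13.22 in Ws, and the groups overlapped. Its change was -0.18 with a 95% interval between -0.48 and 0.12 (adjusted p = 0.28 from limma), so a fall of the size seen in the other small subunit genes lies outside the interval. *rps7*, a gene of the inverted repeat, had 12.14, 12.01 and 12.72 after 5-AC, against 12.77, 13.14 and 12.90 in Ws. It fell by 0.64, the smallest change that was called (adjusted p = 0.010 from limma), and this call was lost when only the arrays of the 2 groups were fitted (adjusted p = 0.051). The remaining small subunit probe sets, for *rps2*, *rps3*, *rps12*, *rps16* and *rps18*, had changes between -2.03 and -1.23, and the pair of *rps12* probe sets fell by 1.23 and 1.28.

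Of the large subunit genes 7 of 9 fell, with a median change of -1.51. *rpl14* showed the deepest fall of all 31 probe sets, with 5.60, 5.48 and 5.98 after 5-AC, against 8.35, 9.08 and 8.49 in Ws, a 7.75-fold difference (log2 change -2.95 ± 0.21, adjusted p = 8.6e-07 from limma). *rpl16* and *rpl20* fell by 2.55 each, *rpl22* by 1.92, *rpl33* by 1.51, *rpl36* by 1.41 and *rpl32* by 1.06. The neighbours *rpl2* and *rpl23*, both in the inverted repeat, did not pass the test. *rpl2*, whose protein sits by the peptidyl transferase center, had 12.38, 11.94 and 12.72 after 5-AC, against 12.40, 12.88 and 12.81 in Ws. *rpl23*, whose protein lies at the exit of the nascent chain tunnel, had 11.53, 10.92 and 12 after 5-AC, against 11.54, 12.15 and 12.31 in Ws. In both the second 5-AC array was the lowest and the third overlapped the Ws arrays. Their changes were -0.36 with an interval between -0.80 and 0.08 for *rpl2* and -0.52 with an interval between -1.11 and 0.08 for *rpl23* (adjusted p = 0.15 and 0.13 from limma). Without the third 5-AC array both were called lower, at -0.54 and -0.78, and without the first Ws array *rpl23* was, at -0.75.

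All 7 of the other genes fell. *cemA*, for a protein of the envelope membrane, had 7.78, 7.62 and 8.38 after 5-AC, against 10.08, 10.62 and 10.24 in Ws. *accD*, for the carboxyltransferase beta subunit of the acetyl-CoA carboxylase that starts fatty acid synthesis, had 7.06, 7.26 and 7.46 after 5-AC, against 9.10, 9.78 and 9.42 in Ws. They fell 5.21-fold and 4.51-fold, and neither group came near the other. *ycf1*, for a large protein of the import machinery of the inner envelope, had 8.28, 7.74 and 8.37 after 5-AC, against 9.66, 10.57 and 10.31 in Ws. *ycf2*, for an ATPase-related protein also tied to import, had 3.30, 3.31 and 3.24 after 5-AC, against 4.78, 4.98 and 4.75 in Ws. *ycf2* fell by 1.55, with tight replicates and a standard error of 0.13. Its 5-AC signals were low, as the 25th percentile of the 5-AC arrays lay between 2.66 and 2.68. *matK*, the maturase for group II introns, had 10.31, 10.09 and 10.76 after 5-AC, against 11.24, 11.83 and 11.45 in Ws, and *clpP*, the proteolytic subunit of the Clp protease, had 10.77, 10.89 and 11.02 after 5-AC, against 11.43, 11.84 and 11.58 in Ws. They had the smallest changes of this group, -1.12 and -0.72, and *ccsA*, for cytochrome c assembly, fell by 1.44.

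**Figure D2:**
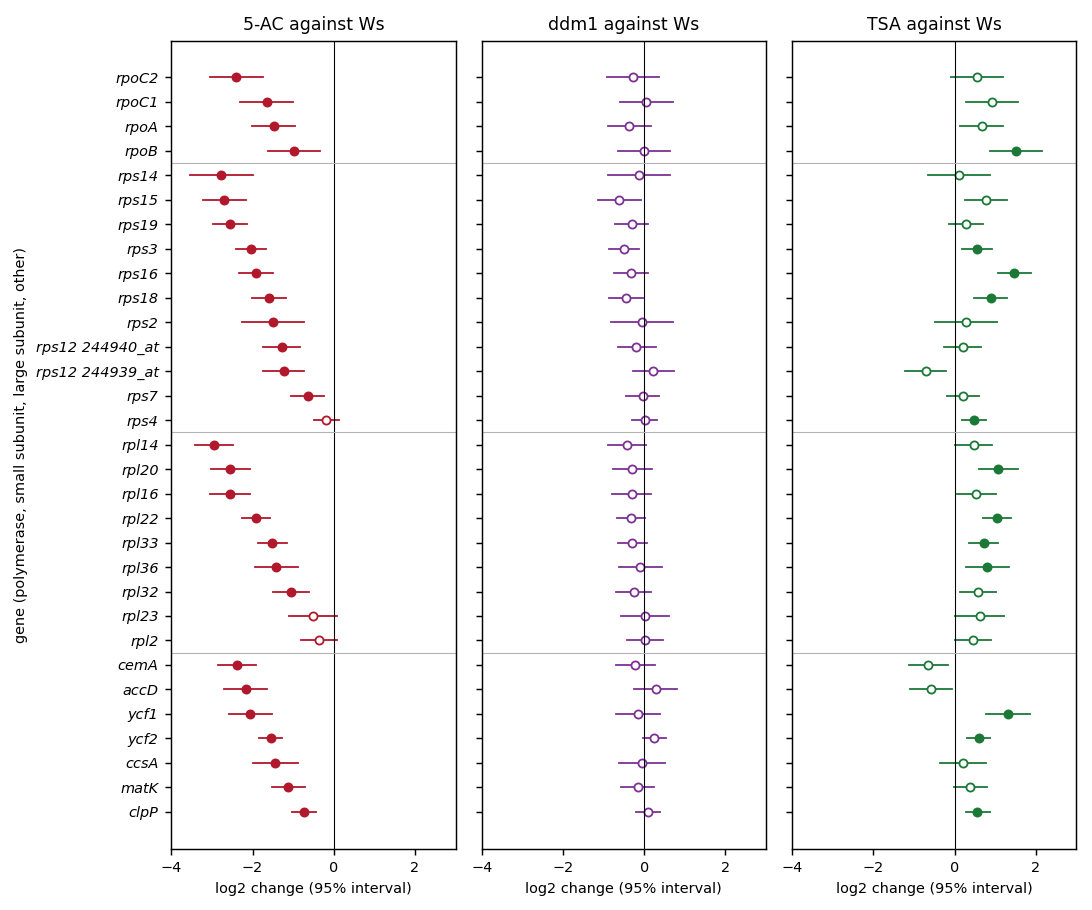
Log2 change against Ws of each probe set after 5-AC, in ddm1 and after TSA (points, with 95% intervals from limma), in rows by role. Filled points passed an adjusted p of 0.05. After 5-AC 28 points are filled, all left of 0. In ddm1 0 are filled, and after TSA 12 are filled, all right of 0.

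The methods' t-test, which estimates the spread of each probe set from the 3 arrays of each group alone, called 19 of the 31 lower after 5-AC, where it called 11.8% of all probe sets lower. When each array was centred on 3 reference genes, *rpl2*, *rpl23* and *rps4* were called lower as well, at -0.61, -0.77 and -0.43. The reference genes were not level themselves, since after 5-AC AT4G34270 rose by 1.14 and PEX4 fell by 0.52 (adjusted p = 2.6e-05 and 0.0029 from limma), while AT2G28390 had a change of 0.14 that was not called. That centring moved the median of all probe sets to -0.21. The 3 probe sets without a call had among the brightest signals, as did *rps7*. Of the 6 members with a mean above 12 in Ws 3 were called lower, with a median change of -0.58, whereas of the 10 photosynthesis probe sets above 12 in Ws 10 were called lower, with a median of -1.41. Over the 31 members the change after 5-AC correlated with the Ws level at a Pearson r of 0.36 and a Spearman rho of 0.46, given as a description, since members share arrays and the Ws mean enters both quantities. Whether bright signals are compressed was not tested.

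In the *ddm1* mutant 0 of the 31 were called, where 1.35% of all probe sets were called higher and 0.215% lower. At an unadjusted p under 0.05, 3 were lower and 0 higher, and the methods' t-test also gave 0 calls, where it called 0.203% of all probe sets higher and 0% lower. The median change was -0.16, against -0.03 over all probe sets tested. Changes lay between -0.61 and 0.28, and the 95% intervals of all members lay between -1.13 and 0.81, so changes as large as most of those after 5-AC fall outside them.

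The lowest changes in *ddm1*, none of them called, were in ribosomal protein genes. Most of the 31 probe sets are of this kind, 11 for the small and 9 for the large subunit. *rps15* had 9.43, 8.69 and 9.09 on the *ddm1* arrays, against 9.46, 10.05 and 9.53 on the Ws arrays, a change of -0.61 ± 0.24 (adjusted p = 0.57 from limma). *rps3* had 11.12, 10.92 and 10.81 in *ddm1*, against 11.19, 11.72 and 11.41 in Ws, with the smallest adjusted p of all members (0.41 from limma). Both were below every Ws array, as were *rpl22* and *rpl33*, which makes 4 of 31, where 10.8% of all probe sets lay so. *rps18* had 9.98, 9.65 and 9.80 in *ddm1* and 9.87, 10.57 and 10.32 in Ws, and *rpl14* had 8.19, 8.08 and 8.37 in *ddm1* and 8.35, 9.08 and 8.49 in Ws. In *rps18* and *rpl14* the groups overlapped.

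At the other end, *accD* had 9.22, 10.05 and 9.86 in *ddm1*, against 9.10, 9.78 and 9.42 in Ws. *ycf2* had 5.06, 4.94 and 5.26 in *ddm1*, against 4.78, 4.98 and 4.75 in Ws. Their changes of 0.28 and 0.25 did not pass the test (adjusted p = 1.00 and 0.82 from limma). *rps12* (244939_at) had 7.16, 7.57 and 7.49 in *ddm1* and 6.74, 7.22 and 7.57 in Ws, and *clpP* had 11.57, 11.77 and 11.79 in *ddm1* and 11.43, 11.84 and 11.58 in Ws. Among the polymerase genes *rpoC2* had 9.24, 9.39 and 9.21 and *rpoC1* had 9.57, 10.05 and 9.64 in *ddm1*, all within the range of Ws. *rpoA* had 10.91, 10.14 and 10.48 in *ddm1*, where all but the first lay below the Ws arrays. *rpoB* varied most, with 5.43, 4.37 and 4.23 in *ddm1*, where the first array was the highest. *matK* had 11.38, 11.34 and 11.34 and *ycf1* had 9.80, 10.13 and 10.15, within their Ws ranges.

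After TSA treatment 12 of the 31 rose and 0 fell, where 7.11% of all probe sets were called higher and 7.28% lower. The median change was 0.56, against 0.02 over all probe sets tested, and 28 of the 31 changes were positive. Every TSA array lay above every Ws array in 18 members and below in 3, where 19.3% and 15.4% of all probe sets lay so. The 12 were *rpoB*, 4 small subunit genes (*rps16*, *rps18*, *rps3* and *rps4*), 4 large subunit genes (*rpl20*, *rpl22*, *rpl36* and *rpl33*), *ycf1*, *ycf2* and *clpP*. Their changes lay between 0.48 and 1.51, and 5 of them were over 2-fold.

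*rpoB* showed the largest rise, with 6.0, 6.52 and 6.03 on the TSA arrays, against 4.69, 4.97 and 4.37 on the Ws arrays, 2.84-fold (log2 change 1.51 ± 0.29, adjusted p = 0.0062 from limma). The genes next to it in the same transcription unit had smaller changes. *rpoC1* had 10.70, 10.65 and 10.51 after TSA, against 9.40, 10.16 and 9.55 in Ws, and *rpoC2* had 10.16, 10.03 and 10.13 after TSA, against 9.35, 10.12 and 9.19 in Ws. *rpoC1* TSA arrays stood above Ws while those of *rpoC2* overlapped, and their changes of 0.92 and 0.55 were not called (adjusted p = 0.062 and 0.25 from limma). *rpoA* had 11.70, 11.49 and 11.45 after TSA, against 10.62, 11.38 and 10.63 in Ws, a change of 0.67 (adjusted p = 0.088 from limma).

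*rps16*, a gene that holds an intron, had 7.46, 7.61 and 7.60 after TSA, against 5.85, 6.40 and 6.0 in Ws. It rose 2.78-fold, with the smallest adjusted p of the members (6.2e-04 from limma). *rps14*, one of the deepest falls after 5-AC, had 5.89, 6.15 and 5.81 after TSA and 5.52, 6.24 and 5.76 in Ws. The groups overlapped, and the change of 0.11 turned to -0.05 without the first Ws array. *rps4* had 13.72, 13.73 and 13.75 after TSA, against 13.15, 13.37 and 13.22 in Ws, and rose by 0.48 (adjusted p = 0.038 from limma). Across the large subunit genes the 9 changes lay between 0.45 and 1.08. *rpl20* had 10.10, 10.41 and 10.12 after TSA, against 8.95, 9.45 and 9.0 in Ws, a rise of 2.11-fold, and *rpl22* rose 2.06-fold.

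*ycf1* had 11.26, 11.68 and 11.55 after TSA, against 9.66, 10.57 and 10.31 in Ws, and rose 2.49-fold (adjusted p = 0.0052 from limma). *ycf2* had 5.46, 5.27 and 5.52 after TSA, against 4.78, 4.98 and 4.75 in Ws. *clpP* had 12.16, 12.19 and 12.18 after TSA, against 11.43, 11.84 and 11.58 in Ws. Both stood above Ws, with rises of 0.59 and 0.56. *matK* had 11.83, 11.94 and 11.93 after TSA and overlapped Ws, at 11.24, 11.83 and 11.45, with a change of 0.39 (adjusted p = 0.20 from limma).

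The other direction was seen in 3 probe sets, none of which passed the test in the main fit. *accD* had 8.97, 8.61 and 8.97 after TSA, against 9.10, 9.78 and 9.42 in Ws. *cemA* had 9.53, 9.59 and 9.87 after TSA, against 10.08, 10.62 and 10.24 in Ws. *rps12* (244939_at) had 6.12, 6.55 and 6.72 after TSA, against 6.74, 7.22 and 7.57 in Ws. In each the TSA arrays lay below the Ws arrays, by 0.58, 0.65 and 0.71 on the log2 scale (adjusted p = 0.13, 0.069 and 0.062 from limma). With the replicate number as a block *cemA* and *rps12* (244939_at) were called lower (adjusted p = 0.048 and 0.032 from limma). Centring on 3 reference genes also gave a lower call for *cemA* (adjusted p = 0.045 from limma). The other *rps12* probe set (244940_at) had 10.67, 10.94 and 11.01 after TSA, against 10.35, 10.86 and 10.80 in Ws, a change of 0.20. *rps12* is transcribed in separate pieces that are joined by trans-splicing, and which piece each probe set measures is not given in the sources used here. The difference between both probe sets was not tested.

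**Figure D3:**
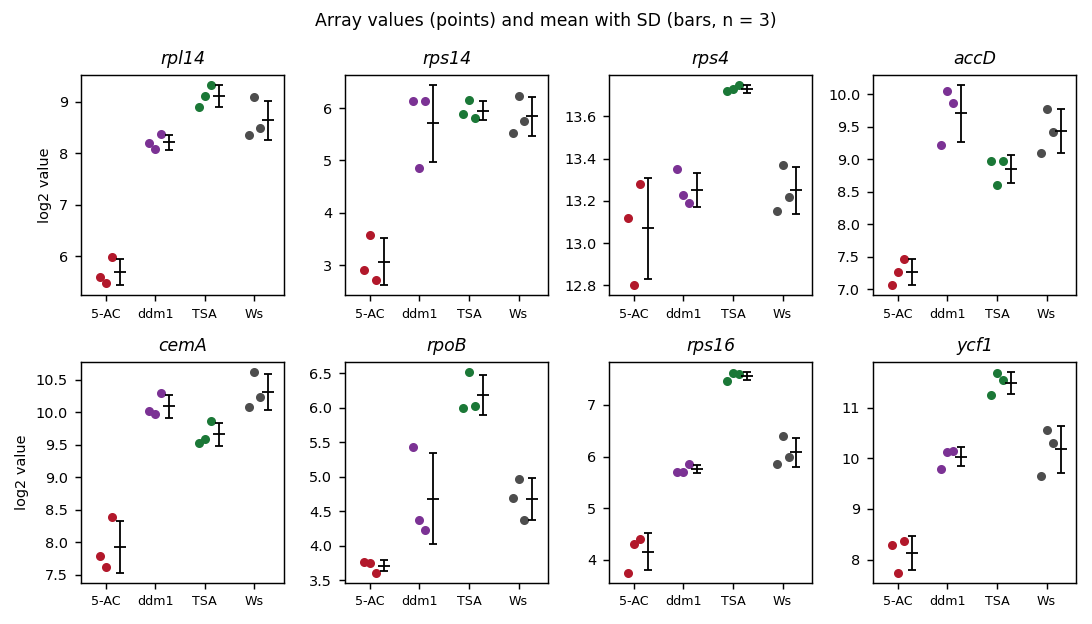
Log2 values on each array (points) with the mean and SD (bars, n = 3) for 8 probe sets, each panel with its own axis. After 5-AC the points lie below those of all other groups except in *rps4*. After TSA *rpoB*, *rps16*, *ycf1* and *rps4* lie above Ws, and *accD* and *cemA* lie between 5-AC and Ws.

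The count after TSA depended on the fit more than the count after 5-AC. It was 0 by the methods' t-test, which called 0.0233% of all probe sets higher and 0.0233% lower, and 7 when only the TSA and Ws arrays were fitted. It was also 7 without the second TSA array and 7 without the first Ws array, and 14 without the second Ws array, which was the highest Ws array for 27 of the 31 members. The calls of *rps3*, *rpl36* and *rps4*, with adjusted p of 0.047, 0.046 and 0.038, were lost in most of these fits, whereas *rpoB*, *rps16*, *ycf1*, *ycf2*, *rpl20* and *rpl22* were lost by the methods' t-test alone. With the replicate number as a block the calls of *rps3*, *rpl36* and *rps4* were lost too, and *cemA* and *rps12* (244939_at) were called lower.

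Beside the TSA result, the transcripts of the other organelle also moved. Of the 21 mitochondrial probe sets tested 17 rose after TSA and 1 fell, with a median change of 2.08. Of the 46 plastid photosynthesis and NDH probe sets 4 rose (*petD*, *ndhB*, *psbD* and *ycf3*) and 1 fell (*ycf4*), with a median of -0.01. These 4 made up 8.7%, near the 7.11% of all probe sets called higher after TSA, while 7.28% of all were called lower. Of the mitochondrial ones 81% were called higher and 4.76% lower. After 5-AC 46 of the 46 photosynthesis and NDH probe sets fell, with a median of -2.46, and of the mitochondrial ones 2 rose and 6 fell, with a median of 0.01. Over all probe sets tested 26.2% were called lower and 30.8% higher, against 28.6% and 9.52% of the mitochondrial ones. In *ddm1* 0 of the 46 and 0 of the 21 were called, where 1.35% of all probe sets were called higher and 0.215% lower. Their medians in *ddm1* were -0.06 and -0.07. The median of the expression and housekeeping members minus that of the photosynthesis and NDH probe sets, taken on each array, lay between 0.59 and 1.02 after 5-AC, between -0.18 and -0.09 in *ddm1*, between 0.69 and 0.81 after TSA and between 0.01 and 0.27 in Ws. The 5-AC and the TSA arrays thus both lay above the Ws arrays in this difference. It was not tested, since it is a score over the members.

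**Figure D4:**
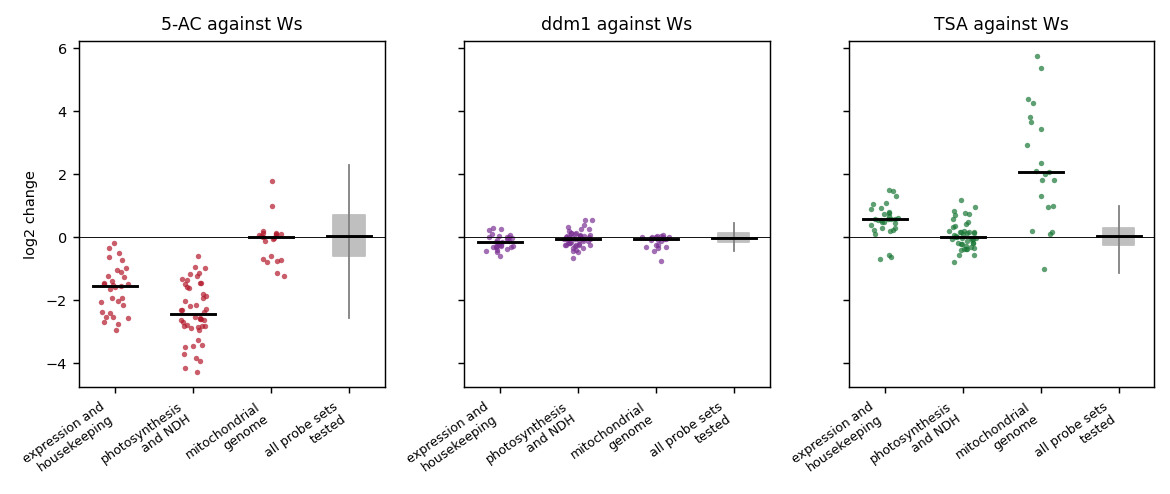
Log2 change against Ws of each probe set (points) of the plastid expression and housekeeping genes, the plastid photosynthesis and NDH genes and the mitochondrial genome, with the median as a bar. The grey box and line give the 25th to 75th and the 5th to 95th percentile of all probe sets tested. After 5-AC the medians are -1.55, -2.46 and 0.01, and after TSA they are 0.56, -0.01 and 2.08.

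The groups were also set directly against each other, since their comparisons with Ws share the Ws arrays. 5-AC against *ddm1* gave 28 lower and 0 higher, where 25.7% of all probe sets were called lower and 30.8% higher, with a median change of -1.46. The 3 without a call were *rpl23*, *rpl2* and *rps4*, at -0.53, -0.37 and -0.19. In this contrast *rps14* had the deepest fall, 2.65, and *accD* fell by 2.45. TSA against 5-AC gave 30 higher and 0 lower, where 23.8% of all probe sets were called higher and 29.3% lower, with a median change of 2.22. Every TSA array was above every 5-AC array in 31 of 31, which was so for 28.2% of all probe sets. The largest differences were in *rpl20*, 12.3-fold, *rps15*, 11.1-fold, *rpl14*, 10.7-fold, *rps16*, 10.5-fold, and *ycf1*, 10.3-fold. The 1 without a call was *rps12* (244939_at) at 0.52 (adjusted p = 0.079 from limma), which was called with the replicate number as a block (adjusted p = 0.040).

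By role the changes after 5-AC were close, with medians of -1.57 for the polymerase, -1.59 for the small subunit, -1.51 for the large subunit and -1.55 for the other genes. After TSA the medians were 0.79 for the polymerase, 0.28 for the small subunit, 0.62 for the large subunit and 0.39 for the other genes. From general knowledge *rpoB*, *rpoC1*, *rpoC2*, *accD* and *ycf2* were taken as members read mainly by the nuclear-encoded polymerase, a list that may not be complete. They were called lower after 5-AC in 5 of 5, with a median of -1.65, and higher after TSA in 2 of 5, with a median of 0.59. Since *rpoB*, *rpoC1* and *rpoC2* share a transcription unit, these are not 5 independent genes. Of the other 26 probe sets 23 were called lower after 5-AC, with a median of -1.50, and 10 were called higher after TSA, with a median of 0.54. Over all probe sets tested 26.2% were called lower after 5-AC and 7.11% higher after TSA.

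The members were also followed along the plastid genome, by the gene order of the RefSeq annotation. In the long ribosomal protein run the change after 5-AC was -0.52 for *rpl23* and -0.36 for *rpl2*, at the edge of the inverted repeat, then -2.56 for *rps19*, -1.92 for *rpl22*, -2.03 for *rps3*, -2.55 for *rpl16*, -2.95 for *rpl14*, -1.41 for *rpl36* and -1.48 for *rpoA*. The step between *rpl2* and *rps19*, which are adjacent, was the largest in this run. The members of the run after *rpl2* were all called lower, where 26.2% of all probe sets were, with a median of -2.03. After TSA the same 7 had a median of 0.56, with *rpl22*, *rps3* and *rpl36* called higher, where 7.11% of all probe sets were.

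Of the 3 probe sets with negative changes after TSA, those of *accD* and *cemA* lie close together, and *rps12*, which lies in pieces, was not placed. The run *accD*, *psaI*, *ycf4*, *cemA* and *petA* had changes of -0.58, 0.02, -0.81, -0.65 and -0.40 after TSA, and of these *ycf4*, a factor for the assembly of photosystem I, was called lower (adjusted p = 0.042 from limma). *rbcL*, on the other side of *accD*, had a change of 0.69 and was not called. On 4 of the 5 of the run every TSA array lay below every Ws array, which was so for 15.4% of all probe sets. After 5-AC all 5 were called lower, where 26.2% of all probe sets were, with a median of -2.17. Both runs were picked after their values had been seen, so they get no test.

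**Figure D5:**
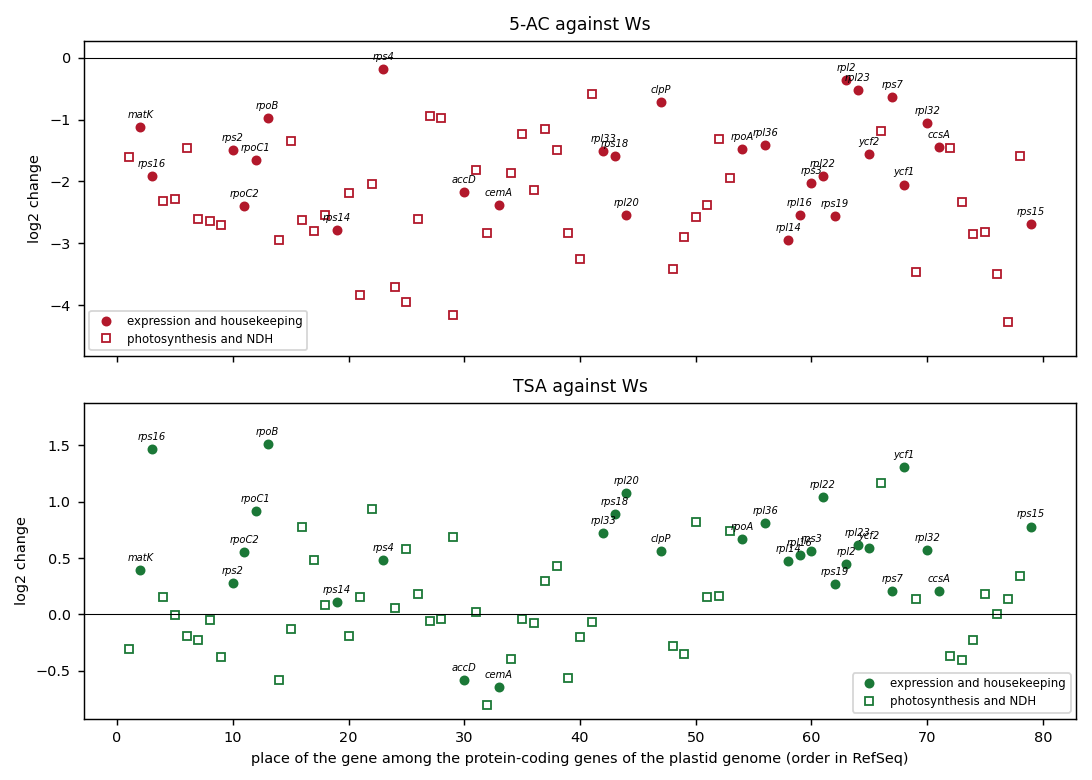
Log2 change after 5-AC (top) and after TSA (bottom) against the place of each gene among the protein-coding genes of the plastid genome, in RefSeq order. Filled circles are expression and housekeeping genes, open squares photosynthesis and NDH genes, and *rps12*, which lies in pieces, is left out. After 5-AC *rps4*, *rpl2* and *rpl23* lie nearest 0, and after TSA *accD* and *cemA* are the circles below 0.

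Nuclear genes whose proteins join the plastid ones were taken from lists written from general knowledge, and few had a probe set that the platform's table names. Of 32 loci listed for plastid ribosomal proteins 8 were measured. After 5-AC 6 of the 8 fell and 0 rose, where 26.2% of all probe sets were called lower and 30.8% higher. The changes lay between -1.81 and -0.49 with a median of -0.98, and in *ddm1* 0 were called. After TSA 7 of the 8 rose, where 7.11% of all probe sets were called higher, with changes between 0.82 and 1.39 and a median of 1.10. The widest changes were -1.81 at AT1G29070 after 5-AC and 1.39 at AT5G47190 after TSA. Of 11 loci listed for the Clp protease 2 were measured. CLPP4, a partner of the *clpP* product in the proteolytic core, rose by 0.86 after TSA (adjusted p = 0.0018 from limma), and its change after 5-AC was -0.12 (adjusted p = 0.47). AT1G09130 rose by 0.82 after 5-AC (adjusted p = 9e-04 from limma). Of 8 loci for phage-type polymerases and sigma factors 1 was measured, AT5G15700. It was not called against Ws in any comparison, with changes of 0.46 after 5-AC (adjusted p = 0.06 from limma), -0.06 in *ddm1* and 0 after TSA. In 5-AC against *ddm1* it was called higher, at 0.53 (adjusted p = 0.036 from limma). Of 14 loci for polymerase-associated proteins and 4 for the nuclear acetyl-CoA carboxylase subunits 0 were measured.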

How the data were processed

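RNA of 12 seedling samples, 3 in each of 4 groups, was hybridised to ATH1 arrays. The deposited values are log2 expression values that the authors computed with gcRMA, which corrects background by probe composition, quantile normalizes the arrays and summarises each probe set to 1 value. Arrays give no counts, so their number limits the precision. The members and gene lists were chosen with earlier results of these data known.

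The platform's table served to name probe sets (13513 with 1 symbol, 503 with several, 8730 unnamed), and RefSeq gave the order of genes. No coordinates are given, since the files name no genome build. Of the 22746 probe sets that are not controls, 17204 entered the tests, the number that were present according to the study's methods, taken by the rank of their second-highest value (2.98 or more). A gene low in one group can pass through another.

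A linear model with 1 coefficient per group and no covariate was fitted in limma (version 3.58.1, R version 4.3.3, lmFit and eBayes) to the 12 arrays together, with two-sided tests, Benjamini-Hochberg adjustment over everything tested and a threshold of 0.05. The script was tested on simulated data. The methods' t-test is the two-sided test with unequal variances that the study used, with the same adjustment. Figures were drawn with matplotlib 3.10.9. Full values are given for the 4 highest and 4 lowest changes of each comparison with Ws, the polymerase genes, *accD*, *clpP*, *matK*, *ycf1* and *ycf2*. Alternatives were the replicate number as a block, the methods' t-test, fits of the 2 groups alone, other filters, centring on 3 reference genes, a trend with robust prior, single-sequence probe sets and leaving out each array.

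Same-numbered arrays deviated together in every pair for *ddm1* and Ws (r between 0.228 and 0.521), 5-AC and *ddm1* (0.107 and 0.257) and TSA and 5-AC (0.128 and 0.185), so those numbers were taken to pair the arrays. The main fit, and the adjusted p it gave, did not use this pairing, which entered only as the block alternative. The pairing comes from this correlation, as the labels do not say what a number stands for.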

Additional observations from a re-analysis of the deposited data

How the results depend on the processing

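The fall after 5-AC kept its direction for every member measured under each alternative run, and 27 to 30 were called lower when single arrays were left out (27 without Ws replicate 2, 30 without 5-AC replicate 3), with medians between -1.78 and -1.43. In *ddm1* 0 were called throughout. After TSA between 7 (without TSA replicate 2 or Ws replicate 1) and 14 were called higher and 0 to 1 lower when single arrays were left out. The calls higher after TSA numbered 0 by the methods' t-test and 7 with only the 2 groups compared, and those lower numbered 1 (*cemA*) with centring on 3 reference genes. By the methods' t-test 17 members were lower in 5-AC against *ddm1*. Centring lowered the share of higher calls among all called probe sets to 38.9% (54.0% without it) after 5-AC and to 39.2% (49.4% without it) after TSA. After 5-AC 2 of the 3 reference genes were themselves called (AT4G34270 at 1.14 and PEX4 at -0.52), so the centred values are relative to genes that moved.

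With the replicate number as a block, 28 members were lower after 5-AC, and after TSA 9 were higher and 2 lower (*cemA* and *rps12* 244939_at). For 5-AC and Ws, and for TSA and Ws, the arrays share only a number (correlations of same-numbered deviations down to -0.0843 and -0.0638). For 11 of 12 arrays the mean correlation of deviations with arrays of other groups was highest for their own number. Of 18 same-number pairs 13 had r over 0.1, and of 36 other-number pairs 5 did. This is a hint from the data and not from the design. The block changed no other count by over 1.5 times.

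Signs turned for 15 changes, none of them called. With centring, changes in *ddm1* became -0.07 for *rpl2* and *rpl23*, -0.04 for *rpoC1*, -0.09 for *rpoB* and -0.08 for *rps4*. With single arrays left out, the changes in *ddm1* ran between -0.11 and 0.06 for *ccsA*, 0.00 and 0.21 for *clpP*, -0.29 and 0.00 for *matK*, -0.13 and 0.11 for *rpl2*, -0.22 and 0.17 for *rpl23*, -0.25 and 0.19 for *rpl36*, -0.38 and 0.22 for *rpoB*, -0.10 and 0.28 for *rpoC1*, -0.46 and 0.01 for *rpoC2*, -0.34 and 0.30 for *rps14*, -0.16 and 0.14 for *rps2*, -0.04 and 0.07 for *rps4*, -0.13 and 0.06 for *rps7*, and -0.41 and 0.04 for *ycf1*. For *rps14* after TSA they ran between -0.05 and 0.31. The cause of these shifts was not tested. With 3 arrays in a group, small changes are not resolved.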
